A study of Mus musculus with 42 samples.

Results

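The liver and the fat of wild-type mice of the older group were compared gene by gene. The comparison used 8 of the 42 one-colour arrays of the study, namely replicates 1 to 4 of the liver and replicates 1 to 4 of the fat. All 8 samples are labelled as wild type, female, C57BL/6 and 35 weeks old. The methods of the study give 40 weeks for the older mice and 3 samples per group, whereas 4 arrays carry each label. The results section of the study describes the fat as visceral. No gene was altered and no treatment was given in either group, and the study used these mice as the littermate controls of *Akt1*+/- mice, which carry a single working copy of the kinase gene *Akt1*. The labels do not state that the arrays of a group came from separate mice, so the p values measure the spread between these samples. Of the 27587 genes on the array without an outlier spot, 18527 were bright enough in at least 1 of the tissues to be tested.

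The liver makes most proteins of the blood plasma, disposes of nitrogen as urea, releases glucose during fasting, makes bile acids and oxidises foreign compounds. White fat stores triglyceride in a single large lipid droplet, releases fatty acids on demand and secretes hormones such as leptin and adiponectin. Liver identity rests on transcription factors such as HNF4A and the FOXA proteins, adipocyte identity on PPARG, and C/EBP proteins act in both. Bulk tissue was measured, so that fewer cells of a type and less RNA per cell cannot be told apart.

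Promoters of genes on both sides of the comparison are shown first, since the share of promoters with liver factor letters varied with the size of the difference. The stretches below are the 120 bases before the start of the gene, from RefSeq on GRCm38.p6, written 5′ to 3′ on the strand of the gene. They show genes described below. *Alb* (chr5:90460750-90460869, plus strand) encodes albumin, *Igfbp1* (chr11:7197667-7197786, plus strand) a liver-secreted binding protein of insulin-like growth factors, *C4bp* (chr1:130661619-130661738, minus strand) an inhibitor of complement and *Gc* (chr5:89457899-89458018, minus strand) the carrier of vitamin D. *Lep* (chr6:29060101-29060220, plus strand) encodes leptin and *Plin1* (chr7:79732777-79732896, minus strand) perilipin, the coat of the adipocyte lipid droplet. Capitals mark the letters GTTAAT in *Alb*, their longer form GTTAATNATT in *Igfbp1*, *C4bp* and *Gc*, and TTGCNNAA in *Lep* and *Plin1*, each found on either strand, the site in *Igfbp1* on the other strand.
Alb: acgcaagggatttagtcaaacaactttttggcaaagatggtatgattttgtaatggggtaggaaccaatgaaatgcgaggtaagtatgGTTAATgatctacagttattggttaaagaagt
Igfbp1: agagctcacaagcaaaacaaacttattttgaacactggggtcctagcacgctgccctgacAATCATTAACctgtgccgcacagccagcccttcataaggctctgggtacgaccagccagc
C4bp: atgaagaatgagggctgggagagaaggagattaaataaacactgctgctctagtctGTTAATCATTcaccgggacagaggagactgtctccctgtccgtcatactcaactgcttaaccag
Gc: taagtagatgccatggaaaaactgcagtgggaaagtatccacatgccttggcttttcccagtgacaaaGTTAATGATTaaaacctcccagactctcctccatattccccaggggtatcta
Lep: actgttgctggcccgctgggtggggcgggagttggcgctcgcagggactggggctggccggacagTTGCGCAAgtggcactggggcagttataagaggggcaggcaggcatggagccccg
Plin1: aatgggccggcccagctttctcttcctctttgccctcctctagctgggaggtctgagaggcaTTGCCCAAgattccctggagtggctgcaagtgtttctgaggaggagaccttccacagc

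The marked letters began 32 bases before the start in *Alb*, 60 in *Igfbp1*, 64 in *C4bp*, 52 in *Gc*, 55 in *Lep* and 58 in *Plin1*. GTTAATNATT contains GTTAAT, so a promoter with the longer form was counted for both. In the 250 bases before the start, on either strand, GTTAAT was present in 7.49% of the 27025 genes with a promoter entry and in 5.73% of the 11962 such genes that were tested. It was present in 21.7% (53 of 244) of the genes at least 256-fold higher in liver and in 0 of 43 genes at least 256-fold higher in fat. At the threshold of 4-fold the shares were 11.5% (147 of 1276) for liver and 4.54% (76 of 1674) for fat. The longer form was present in 0.44% of all promoters, in 29 of 1276 genes at least 4-fold higher in liver and in 0 of 1674 at least 4-fold higher in fat. The 12 genes at least 256-fold higher in liver that held it were *Afm*, *C4bp*, *F13b*, *G6pc*, *Gc*, *Hc*, *Igfbp1*, *Prodh2*, *Sult1d1*, *Ugt1a1*, *AI182371* and *Gm4788*.

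TTGCNNAA, a form of the C/EBP site, was present in 10.8% of all promoters, in 22.5% of genes at least 256-fold higher in liver and in 11.6% (5 of 43) of genes at least 256-fold higher in fat. TGTTTAC, the core bound by FOXA and other forkhead proteins, was present in 3.54% of all promoters and in 9.02% of genes at least 256-fold higher in liver. AGGTCA, to which nuclear receptors bind, was present in 15.8% of all promoters, in 29.5% of genes at least 256-fold higher in liver and in 6.98% of those at least 256-fold higher in fat. The shares among the tested genes were 9.61%, 2.91% and 14% for these 3 motifs. GGGCGG, the letters bound by SP1, was present in 35.4% of all promoters but in 58.8% of those of tested genes, and it was below the latter in genes at least 256-fold higher in liver (16.8%) and in fat (48.8%). The fold classes here are by the fitted difference, and these shares describe letters in short windows. They carry no test, and a match is not a measured binding site.

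Levels below are log2 intensities relative to the 75th percentile of the same array, which lies at 0, so a value of 3 is 8 times brighter than that percentile. A probe counted as detected when the scanner software flagged it as well above background. Between 58.5 and 63.5% of probes were detected on the liver arrays and between 64.2 and 68.6% on the fat arrays. The detection limit, the lowest level among detected probes, lay between −5.51 and −4.88 in liver and between −6.08 and −5.58 in fat. Both measures, and the brightness of the arrays, separated the tissues without overlap (two-sided exact permutation test, p = 0.0286, the smallest p that 4 against 4 allows, and 0.0286 after adjustment over 3 tests). The 4 liver arrays shared 1 slide and the 4 fat arrays another, and these were scanned on different days. Slide, scan day and tissue therefore cannot be told apart in these 8 arrays.

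The labelled tissues carried their defining markers. All 11 hepatocyte markers on the array were detected on 4 of 4 liver arrays and were higher in liver, and all 10 adipocyte markers were detected on 4 of 4 fat arrays and were higher in fat. The summed level of the hepatocyte list, on the linear scale where 1 is the 75th percentile, was 3336 to 4374 in liver and 101.2 to 123 in fat, where *Apob* was on no array above background. Nearly all of the fat sum was *Cyp2e1*, and the other 10 markers summed to 3206 to 4150 in liver and to 1.238, 2.122, 1.544 and 4.193 on fat replicates 1 to 4, a sum computed after the data were seen. The summed level of the adipocyte list was 2005 to 2294 in fat and 16.81 to 44 in liver, where *Adipoq* and *Lep* were on no array above background.

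Fat replicate 4 was the highest fat array in more of the genes of liver than any other fat replicate. Among the 316 genes at least 256-fold higher in liver, it had the highest of the 4 fat levels for 147, against 100 for replicate 2, 39 for replicate 1 and 30 for replicate 3. The median level of these genes was −5.91 on replicate 4 and −6.76, −6.78 and −7.18 on replicates 1 to 3. These medians lay within or below the range of the fat detection limit, −6.08 to −5.58. Of the 316 genes, 144 were above background on replicate 4, against 119, 107 and 94 on replicates 1 to 3, with 78 on all 4 fat arrays and 149 on none. The part of other tissue or cells in these values was not tested. Without fat replicate 4, 1981 genes were at least 4-fold higher in liver and 2523 in fat, and 477 genes were detected in liver only, against 1951, 2554 and 418 with it. Leaving out fat replicate 1, 2 or 3 instead gave 521, 433 and 440 genes detected in liver only. The rise in that count was therefore not particular to replicate 4.

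The tissues differed in most genes. Of the 18527 genes, 14411 (77.8%) passed an adjusted p of 0.05 in limma, 7264 (39.2%) higher in liver and 7147 (38.6%) higher in fat. A further threshold of at least 4-fold left 1951 genes (10.5%) higher in liver and 2554 (13.8%) higher in fat. Fat had more genes past 4-fold, liver more of the largest differences. By the fitted difference, 316 genes were at least 256-fold higher in liver and 71 in fat, but many of these were above background on no array of the other tissue, so that their fold is known only as a lower bound. With the bound in place of the fitted fold for such probes, an alternative chosen after seeing the data, 1806 genes were at least 4-fold higher in liver and 2065 in fat, 732 and 556 at least 16-fold, 427 and 165 at least 64-fold, 276 and 44 at least 256-fold, and 157 and 14 at least 1024-fold. The median difference over all genes was 0.01, and the median SD between replicates was 0.18 in liver and in fat alike. The levels of 906 called genes overlapped between the tissues.

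**Figure D1:**
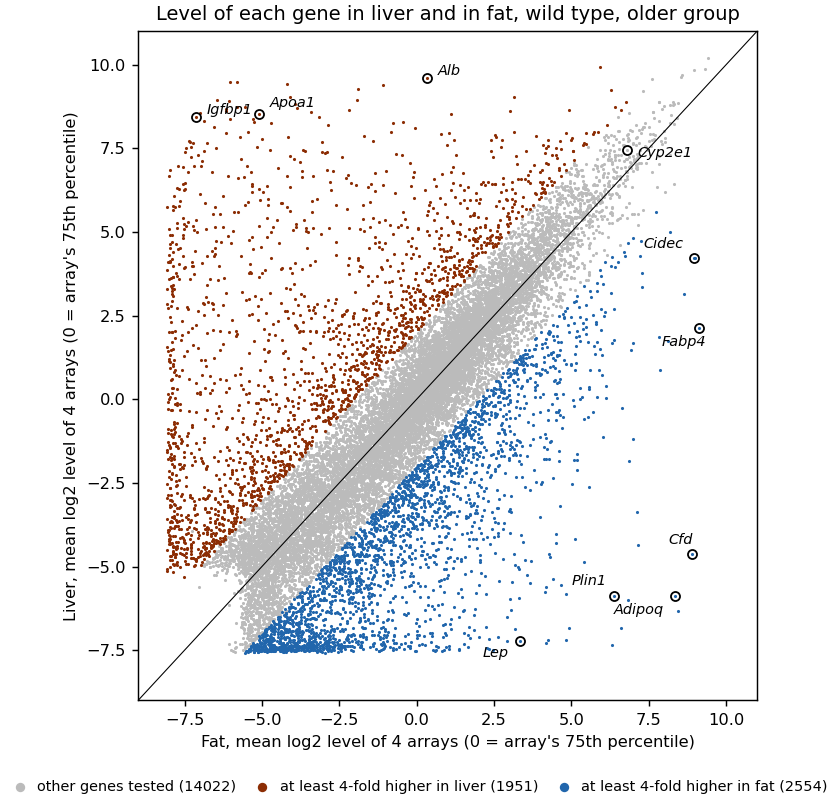
Mean log2 level of each tested gene in fat (horizontal axis) and in liver (vertical axis), each over 4 arrays and relative to the 75th percentile of the array. The diagonal marks equal levels. The 1951 genes at least 4-fold higher in liver and the 2554 at least 4-fold higher in fat are coloured, and the liver genes reach farther from the diagonal than the fat genes.

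Genes detected in a single tissue were counted with no test. A gene was counted when a probe of it was above background on 4 of 4 arrays of one tissue and none of its probes on any of the 4 arrays of the other. This held for 418 genes in liver (1.52% of 27587) and 970 in fat (3.52%). The fat arrays had the lower detection limit, whose part in the larger fat count was not tested. The difference of such a gene is known only as a lower bound, set by the detection limit of the other tissue. The bound had a median of 4.03 (log2) in the liver genes and of 1.55 in the fat genes, and 167 liver genes and 80 fat genes had a bound of at least 5. In 20 of the fat genes and 0 of the liver genes the bound was at or below 0, so that it shows no difference. The lowest bounds were −0.33 in fat and 0.77 in liver.

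The liver genes with the highest bounds were secreted proteins, transporters and enzymes. *Mbl2*, the mannose-binding lectin that starts the lectin pathway of complement, had liver levels of 7.57, 7.88, 7.74 and 7.73 and was at least 11543-fold higher in liver. *Ces3b*, a carboxylesterase, followed at 11248-fold or more, and *Slc27a2*, which imports and activates fatty acids, at 9870-fold or more. *Apob*, the structural protein of very-low-density lipoprotein, the esterase gene *Aadac*, the hepatocyte uptake transporter *Slco1b2* and the protease inhibitor *Pzp* had bounds of 13.15, 13.04, 12.95 and 12.75 (log2). *C4bp*, whose promoter is printed above, had liver levels of 6.85, 7.06, 6.97 and 6.89 and a bound of 12.71. The steroid-oxidising *Cyp3a44* and a transcript known on the array only as NAP001160-001 completed the first 10 with bounds of 12.61 and 12.44. In this group the liver arrays lay within 1 log2 unit of each other for each gene.

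The fat genes with the highest bounds included hormones and amine or amino acid handling proteins. *Adipoq*, which encodes adiponectin, had fat levels of 8.24, 8.54, 8.39 and 8.23 and was at least 13152-fold higher in fat. *Rbp7*, a retinoid-binding protein of adipose vessels, and *Retnla*, a resistin-like protein of alternatively activated macrophages, were at least 3935-fold and 3183-fold higher. *Glb1l2*, a galactosidase-like gene, *Aoc3*, an amine oxidase of the adipocyte surface, and the carbonyl reductase *Cbr2* had bounds of 10.25, 10.16 and 10.16 (log2). The amino acid transporters *Slc7a10* and *Slc36a2* had bounds of 9.58 and 9.52, and *Ppp1r1a*, an inhibitor of protein phosphatase 1, one of 9.48. *Lep* had fat levels of 2.77, 4.18, 2.16 and 4.19 and was at least 404-fold higher in fat. The 4 fat levels of *Lep* spread over 2 log2 units, those of *Adipoq* over less than 1.

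Among genes above background on at least 3 of 4 arrays of both tissues, the largest differences in favour of liver were again in plasma proteins and cytochromes P450. *Apoa1*, the main protein of high-density lipoprotein, had liver levels of 8.45, 8.29, 8.73 and 8.60 and fat levels of −5.71, −5.91, −4.55 and −4.21, detected on 3 of 4 fat arrays, a difference of 13.61 ± 0.38 (SE, n = 4 and 4, adjusted p = 1.19e-08). *Hpx*, the haem carrier haemopexin, had levels of 8.89, 8.75, 8.90 and 8.75 in liver and −4.55, −4.05, −4.11 and −3.04 in fat, a difference of 12.76 ± 0.29 (adjusted p = 3.96e-09). Every liver level lay far above every fat level in both genes. The fatty acid hydroxylases *Cyp4a14* and *Cyp4a31* differed by 13.60 and 12.01, *Cyp2d26* by 13.11, the triglyceride regulator *Apoa5* by 12.98, the anticoagulant *Proc* by 12.71, the gluconeogenic enzyme *Fbp1* by 12.59, the calcium-binding *Rgn* by 12.19 and *Itih3*, an inter-alpha-inhibitor chain, by 12.

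*Alb* was not among the 10 largest differences in favour of liver. Its levels were 9.42, 9.43, 9.79 and 9.73 in liver and −0.48, 0.68, −0.14 and 1.23 in fat, a difference of 9.27 ± 0.35 (adjusted p = 6.71e-08) or 618-fold, with fat replicate 4 the highest of the fat arrays. *Cyp2e1*, the ethanol-oxidising P450, differed little between the tissues. It had 7.03, 7.28, 7.80 and 7.73 in liver and 6.64, 6.71, 6.92 and 6.87 in fat, without overlap, a difference of 0.67 ± 0.18 (adjusted p = 0.00835). *Igfbp1* had 8.37, 8.06, 8.94 and 8.31 in liver, whereas in fat it was above background on replicate 4 alone, at −4.51, with −8.30, −7.86 and −7.88 on the others. Its difference was 15.56 ± 0.78, and 16.43 without fat replicate 4.

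**Figure D2:**
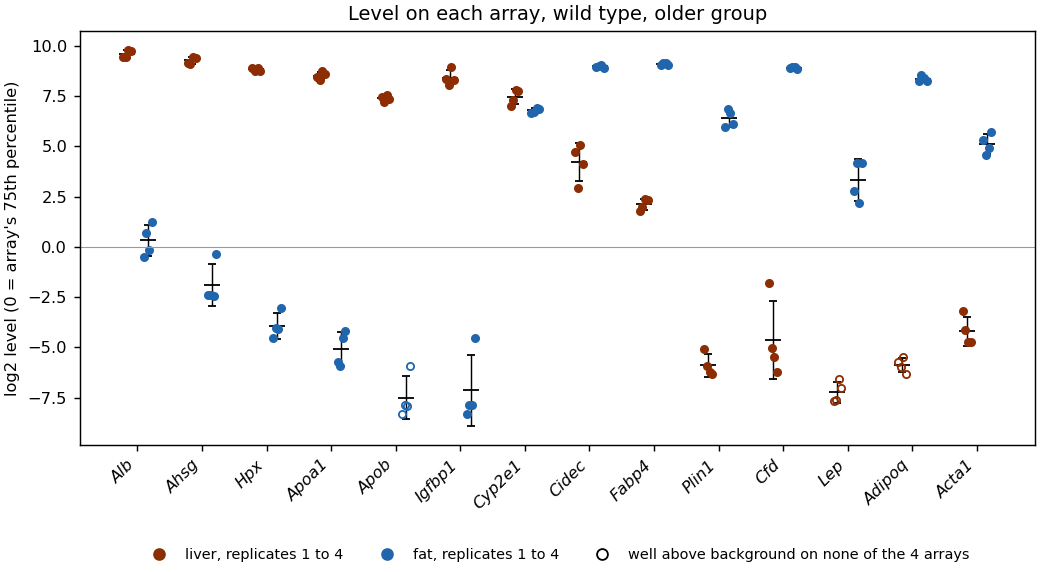
Log2 level of 14 genes on each of the 4 liver and 4 fat arrays, relative to the array's 75th percentile, with the mean and SD of each group. Open circles mark groups in which the gene was above background on no array. *Cyp2e1* is bright in both tissues, and the adipocyte genes *Cidec* and *Fabp4* lie above 0 on every liver array.

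On the side of fat, the largest differences among genes above background on at least 3 of 4 arrays of both tissues were in *Apol6*, an apolipoprotein L family member, with −11.51 ± 0.18, and *Rgcc*, a cell cycle regulator, with −10.49. *Apol6* had levels of 7.34, 7.44, 7.07 and 6.78 in fat and −4.05, −4.30, −4.64 and −4.40 in liver. The muscle actin *Acta1* differed by −9.32, the guidance ligand *Slit3* by −9.03, the BMP antagonist *Chrdl1* by −8.89, the sulfotransferase *Chst1* by −8.81, the protein kinase A subunit *Prkar2b* by −8.72, the glutamate transporter *Slc1a3* by −8.55 and the enkephalin precursor *Penk* by −8.53. *Acta1* had fat levels of 5.30, 4.57, 4.90 and 5.73. It is a defining gene of skeletal muscle, of which 8 of 10 markers were higher in fat. Their summed level was 26.59 to 54.74 in fat and 0.4635 to 0.4974 in liver, but *Acta1* made up most of it. Without *Acta1*, the other 9 markers summed to 11.26, 2.876, 3.206 and 1.546 on fat replicates 1 to 4 and to 0.3834 to 0.4591 in liver, so that replicate 4, the highest in *Acta1*, was the lowest in the rest. In liver *Ckm*, *Myh4* and *Actn3* were on no array above background. The part of muscle fibres in the fat samples was not tested.

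Plasma carrier and transport proteins were the list with the highest median difference, 11.18 against 0.01 over all genes. All 31 members were higher in liver, against 39.2% of all genes, and 27 by at least 4-fold. The shares of all genes, 39.2% higher in liver and 38.6% in fat, also stand beside the list counts that follow. *Ambp*, the precursor of alpha-1-microglobulin, had 9.34, 9.41, 9.59 and 9.59 in liver and −8.12, −4.81, −7.82 and −2.42 in fat, above background on 2 fat arrays, a difference of 15.28 ± 1.17 that was 16.40 without fat replicate 4. *Apoh*, a phospholipid-binding plasma protein, differed by 14.68 and was above background on 1 fat array. The smallest differences were those of *Rbp4* at 1.89, *Apoe* at 1.10 and *Selenop* at 0.78, the carriers of retinol, remnant lipoproteins and selenium. *Apoe* was bright in both tissues, with 9.65, 9.52, 9.83 and 9.76 in liver and 8.71, 8.57, 8.73 and 8.34 in fat. The difference of *Selenop* was −0.002 with normexp background correction and quantile normalization.

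Coagulation factors lay on both sides. Of 29 members, 21 were higher in liver and 8 in fat, with a median of 8.01. The fibrinogen chains *Fgb* and *Fgg* differed by 15.50 ± 1.04 and 15.40 and prothrombin, *F2*, by 14.84, each above background on 1 or 2 fat arrays. *Fgb* had 9.29, 9.36, 9.72 and 9.51 in liver and −8.30, −5.16, −7.62 and −3.04 in fat. Among the 8 members higher in fat were the cell-bound initiator tissue factor *F3* at −3.57, thrombomodulin *Thbd* at −4.36, the inhibitor *Tfpi* at −0.73, von Willebrand factor *Vwf* at −2.11, the plasminogen activators *Plat* at −4.93 and *Plau* at −6.09 and the A chain of factor XIII, *F13a1*, at −9.78. These are known products of endothelial cells, fibroblasts and macrophages as well as of fat.

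Complement components lay on both sides too. Of 25 members tested, 17 were higher in liver, 6 in fat and 2 passed in neither direction, and the median was 2.09. *Mbl2*, *C4bp* and *C8a*, a subunit of the membrane attack complex, had bounds of 13.49, 12.71 and 9.42. The 6 members higher in fat were *Cfd* (adipsin) at −13.55, *C2* at −1.14, the 3 chains of C1q, *C1qa* at −0.59, *C1qc* at −0.64 and *C1qb* at −0.83, which macrophages make, and properdin, *Cfp*, at −0.30. The call of *Cfp* (adjusted p = 0.0408) was lost under 10 of 17 other settings, among them median scaling, the replicate block and leaving out any 1 fat array (adjusted p up to 0.258). *C6* at −0.22 and *C7* at −1.50 did not pass, although *C7* passed as higher in fat with the replicate block (adjusted p = 0.0156) and in a fit of all 42 arrays (adjusted p = 0.0323).

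Amino acid breakdown and the urea cycle were almost wholly on the side of liver. Of 41 members, 40 were higher in liver, 35 of them by at least 4-fold, with a median of 8.98. *Mat1a*, which makes the methyl donor S-adenosylmethionine, had 8.52, 8.37, 8.74 and 8.61 in liver and −8.27, −7.56, −7.84 and −4.39 in fat, a difference of 15.57 ± 0.77. *Agxt*, which clears glyoxylate, and *Ftcd*, of histidine breakdown, differed by 14.42 and 14.18, each above background on 1 fat array. *Cps1*, the entry enzyme of the urea cycle, had 7.01 to 7.3 in liver and −7.86 to −4.73 in fat, a difference of 14.05. *Bcat2*, which takes the amino group from branched-chain amino acids in tissues other than liver, was the exception at −1.73 (adjusted p = 3.8e-05). The next steps of that route, *Bckdhb* at 0.80 and *Hibadh* at 0.58, had the smallest positive differences, and *Hibadh* was −0.224 with normexp and quantile normalization.

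Among 22 genes of gluconeogenesis, glycogen and fructose, 20 were higher in liver, with a median of 4.85. *Slc2a2*, the glucose transporter of the hepatocyte, was at least 1226-fold higher in liver, and *Fbp1* differed by 12.59. *G6pc*, which releases free glucose and holds the longer letters GTTAATNATT, differed by 11.13. *Pck2*, the mitochondrial form of phosphoenolpyruvate carboxykinase, was the member higher in fat. Its levels were −0.22, −0.43, −0.46 and −0.44 in liver and 2.54, 2.20, 2.29 and 2.62 in fat, a difference of −2.80 ± 0.12. *Pfkfb1* at 0.39 did not pass, and *Pcx*, 0.63 here, was −0.419 with normexp and quantile normalization.

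Bile acid synthesis and transport had 22 of 23 members higher in liver, with a median of 7.95, and 9 of them were detected in liver only. *Cyp7a1*, the rate-limiting enzyme of bile acid synthesis, had 4.51, 4.32, 1.6 and 3.99 in liver. Liver replicate 3 was the lowest of these by over 2 log2 units, and the difference from fat was 10.95 ± 0.90. *Slc27a5*, which activates bile acids, differed by 12.86, and *Baat*, which joins them to taurine, had a bound of 10.77. The smallest differences were those of *Hsd3b7* at 2.81, *Scp2* at 1.98 and *Klb*, the co-receptor of fibroblast growth factor 21, at 0.38, which did not pass (adjusted p = 0.226). *Klb* passed with the mean of its probes (1.21, adjusted p = 0.000318) and without fat replicate 3 (0.64, adjusted p = 0.0112).

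Drug and steroid metabolism had 37 of 41 members higher in liver, with a median of 4.99. *Cyp2a5* differed by 14.28 and was above background on 1 fat array, and *Cyp4a12a* differed by 13.98, with another probe of it above background on 2 fat arrays. *Cyp1b1*, a P450 of stromal cells, at −5.05 and the flavin monooxygenase *Fmo2* at −1.12 were higher in fat. The aldehyde oxidase *Aox1* at −0.23 and *Sult1a1* did not pass.

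Fatty acid oxidation and ketone body genes had 24 of 25 members higher in liver, 19 by at least 4-fold, with a median of 2.49. *Bdh1*, which makes 3-hydroxybutyrate, differed by 9.53, *Acot1* by 6.64 and *Ehhadh* of the peroxisome by 6.55. *Oxct1*, needed to burn ketone bodies and known to be scarce in hepatocytes, was the 1 member higher in fat. It had 0.97, 0.75, 0.80 and 0.91 in liver and 5.59, 5.71, 5.42 and 5.70 in fat, a difference of −4.74 ± 0.10 or 26.7-fold. The ketone-making *Bdh1* and the ketone-using *Oxct1* lay on opposite sides.

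Lipogenesis and cholesterol synthesis was a mixed list, with 22 of 33 members higher in liver, 7 in fat and 4 not past the threshold, and a median of 1.52. The fatty acid elongase *Elovl3* was higher in liver, at 4.84, and was above background on 1 fat array. Fatty acid synthesis and NADPH supply held the members higher in fat. These were *G6pdx*, which supplies NADPH, at −4.95, the desaturases *Scd2* at −2.30 and *Scd1* at −1.65, the regulator *Srebf1* at −1.54, the acetyl-CoA carboxylases *Acaca* at −1.27 and *Acacb* at −0.97, and fatty acid synthase *Fasn* at −1.12. *Fasn* had 4.95, 5.57, 5.54 and 6.01 in liver and 5.79, 7.54, 5.85 and 7.37 in fat. These overlapped, and the call (adjusted p = 0.0488) was lost under 8 of 17 other settings, including without liver replicate 1, 2 or 3 or fat replicate 2 or 4 (adjusted p up to 0.121).

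Transcription factors of the liver had 18 of 19 tested members higher in liver, with a median of 6.78, and 6 of them were detected in liver only. *Hnf4a* had 3.71, 4.08, 4.13 and 4.44 in liver and a difference of 12.08. The probe used was on no fat array above background, but another probe of *Hnf4a* was on 3, so no bound is given. The xenobiotic receptor *Nr1i2* had a bound of 9.41 and *Foxa3* one of 7.77. *Ppara*, the regulator of fatty acid oxidation, differed by 5.07. *Cebpa*, on which both tissues depend, had 4.13, 4.10, 3.93 and 4.11 in liver and 4.15, 4.52, 4.02 and 4.16 in fat, and its difference of −0.15 did not pass (adjusted p = 0.281). It passed as higher in fat under 2 other scalings, at −0.804 with normexp and quantile normalization and at −0.299 with the 75th percentile of detected probes.

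Adipocyte transcription factors had 15 of 24 tested members higher in fat, 6 in liver and 3 not past the threshold, with a median of −2.44. *Pparg* had 1.97, 2.29, 2.01 and 1.86 in liver and 4.5, 5.45, 5.47 and 5.29 in fat, a difference of −3.15 ± 0.22 (adjusted p = 2.73e-06). The positional gene *Hoxc9* and *Ebf2*, a commitment factor of adipocytes, were on no liver array above background and had bounds of 7.34 and 6.71 in favour of fat, and *Ebf3* differed by −8.06. The 6 members higher in liver were *Ppargc1a*, the coactivator of gluconeogenesis and mitochondrial growth, at 2.81, the retinoid receptors *Rxra* at 1.79 and *Rxrg* at 0.94, *Klf15* at 1.48, *Cebpb* at 1.35 and the oxysterol receptor *Nr1h3* at 0.94. The call of *Klf15* (adjusted p = 0.0403) was lost under 8 of 17 other settings, among them normexp and quantile normalization (1.07, adjusted p = 0.1). That of *Rxrg* was lost under 5 settings, and that of *Cebpb* with normexp and quantile normalization (0.48, adjusted p = 0.125). Among the 16 members above background on all 8 arrays, 6 were higher in liver and 7 in fat, with a median of 0.08.

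Of the adipokines and other factors secreted by fat, 15 of 19 tested members were higher in fat, against 38.6% of all genes, and the median was −1.59. *Cfd* had 8.88, 8.94, 8.97 and 8.85 in fat and −1.81, −5.03, −5.48 and −6.23 in liver, above background on 2 liver arrays, with replicate 1 the highest. Resistin, *Retn*, had 6.62, 7.04, 6.84 and 6.78 in fat and differed by −12.81 ± 0.37. The 3 members higher in liver were *Igf1* at 2.39, angiotensinogen *Agt* at 1.66 and chemerin *Rarres2* at 1.53, which were bright in fat too, with means of 4.09, 6.10 and 5.91. *Nampt* at −0.46 did not pass (adjusted p = 0.0576).

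Lipid droplet, lipolysis and fatty acid uptake genes had 24 of 41 members higher in fat, 12 in liver and 5 not past the threshold, with a median of −1.91. *Plin1* had 5.94, 6.84, 6.64 and 6.13 in fat and was above background on 1 liver array, with a difference of −12.27 ± 0.31. The hormone-sensitive lipase gene *Lipe* had 4.06, 4.73, 4.64 and 4 in fat and −1, −1.36, −1.34 and −1.25 in liver, a difference of −5.59. *Pnpla2*, the first lipase of triglyceride breakdown, differed by −2.95 and caveolin, *Cav1*, by −8.18. Members higher in liver were the liver forms *Fabp1*, *Slc27a2*, *Cideb*, *Lipc*, *Aqp9* and *Plin5*, together with *Gpd1* at 2.78, *Lmf1* at 1.63, *Agpat2* at 1.43, *Dgat2* at 1.37, *Plin2* at 1.16 and *Slc27a4* at 1.13. The calls of *Dgat2* (0.44, adjusted p = 0.15) and *Plin2* (0.46, adjusted p = 0.0662) were lost with normexp and quantile normalization. *Cidec*, which enlarges lipid droplets, had 4.70, 2.91, 5.09 and 4.14 in liver, a spread of over 2 log2 units, and 8.94, 9.02, 9.05 and 8.89 in fat.

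Thermogenic genes lay on both sides, with 8 of 13 tested members higher in fat and 5 in liver, beside 38.6% and 39.2% of all genes. Their median was −2.86. The median was −0.65 with normexp and quantile normalization, −1.07 without a filter on dim probes and −0.92 over the 8 members above background on all 8 arrays. *Ucp1*, the uncoupling protein of brown and beige fat, was dim. Its fat levels were −3.88, −5.51, −2.33 and −6.39, above background on 3 of 4 fat arrays and on no liver array (adjusted p = 0.00839). *Cox8b*, a cytochrome oxidase subunit of brown fat and muscle, had a bound of 6.68 in favour of fat, with 0.86 to 1.69 there. The 5 members higher in liver were *Gk* at 6.15, *Elovl3* at 4.84, *Ppargc1a* at 2.81, *Tmem26* at 1.94 and *Cox7a1* at 1.01.

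Collagens and matrix genes were the list with the lowest median, −4.38. Of 40 members, 37 were higher in fat, 34 of them by at least 4-fold. *Col1a1* had 4.09, 4.29, 4.23 and 4.08 in fat and −1.44, −1.70, −2.14 and −1.91 in liver, a difference of −5.97 ± 0.15. *Lox*, which cross-links collagen, and *Mfap5*, a microfibril protein, were on no liver array above background and had bounds of 6.99 and 6.29 in favour of fat. The 3 members higher in liver were *Col18a1*, the source of endostatin, at 3.34, fibronectin *Fn1*, a plasma protein made by hepatocytes, at 2.40, and *Col14a1* at 0.48. *Col18a1* had 7.66, 7.49, 7.54 and 7.39 in liver and 4.09, 4.28, 3.94 and 4.42 in fat.

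Insulin and insulin-like growth factor signalling, the pathway the study addressed, had 12 of 41 tested members higher in liver, 22 in fat and 7 not past the threshold, beside 39.2% and 38.6% of all genes, with a median of −0.35 that was −0.7 with normexp and quantile normalization. The circulating binding proteins were on the side of liver, with *Igfbp1* at 15.56, *Igfbp2* at 7.98 and the acid-labile subunit *Igfals* at 4.59. *Slc2a4*, the insulin-responsive glucose transporter, had 3.05, 4.19, 3.53 and 3.18 in fat and −5.19, −4.42, −4.97 and −4.68 in liver, a difference of −8.30 ± 0.27. *Igfbp6* at −7.83, the growth factor *Igf2* at −4.98 and the adipocyte adaptor *Irs3*, with a bound of 3.92, were also higher in fat. *Igf1r* differed by −2.50 (adjusted p = 3.13e-07) and the insulin receptor *Insr* by 0.40 (adjusted p = 0.00655), a call lost with normexp and quantile normalization (0.23, adjusted p = 0.0633), with the 75th percentile of detected probes (adjusted p = 0.0582) and with the mean of probes (0.17, adjusted p = 0.227). The inhibitory adaptors differed in direction, *Grb14* by 4.16 and *Grb10* by −5.04. *Akt1* had 3.60, 3.53, 3.46 and 3.58 in liver and 3.71, 3.73, 3.75 and 3.57 in fat and did not pass (−0.15 ± 0.08, adjusted p = 0.109), whereas *Akt2* was higher in fat by 1.15 on the log2 scale (−1.15 ± 0.11, adjusted p = 2.09e-05).

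Lists of common machinery had medians between 0.11 and 1.12. Of 82 electron transport chain genes, 77 were higher in liver and 2 in fat, among the latter *Cox8b*, with a median of 0.97. The count for liver was 41 with normexp and quantile normalization, where 16 were higher in fat. Of 38 proteasome genes, 34 were higher in liver with a median of 1.12, led by *Psmd9* at 2.65. The 2 members higher in fat were *Psmb8* at −0.43 and *Psmb9* at −0.48, subunits of the immunoproteasome. The third such subunit, *Psmb10*, did not pass (−0.16, adjusted p = 0.183), but passed as higher in fat with normexp and quantile normalization (−0.79) and with the 75th percentile of detected probes (−0.31, adjusted p = 0.0166). Of 77 cytosolic ribosomal protein genes, 54 did not pass, 19 were higher in liver and 4 in fat with a median of 0.11, and this direction depended on the scaling, with 35 and 1 under median scaling, 11 and 16 with the 75th percentile of detected probes, and 1 and 72 with normexp and quantile normalization.

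**Figure D3:**
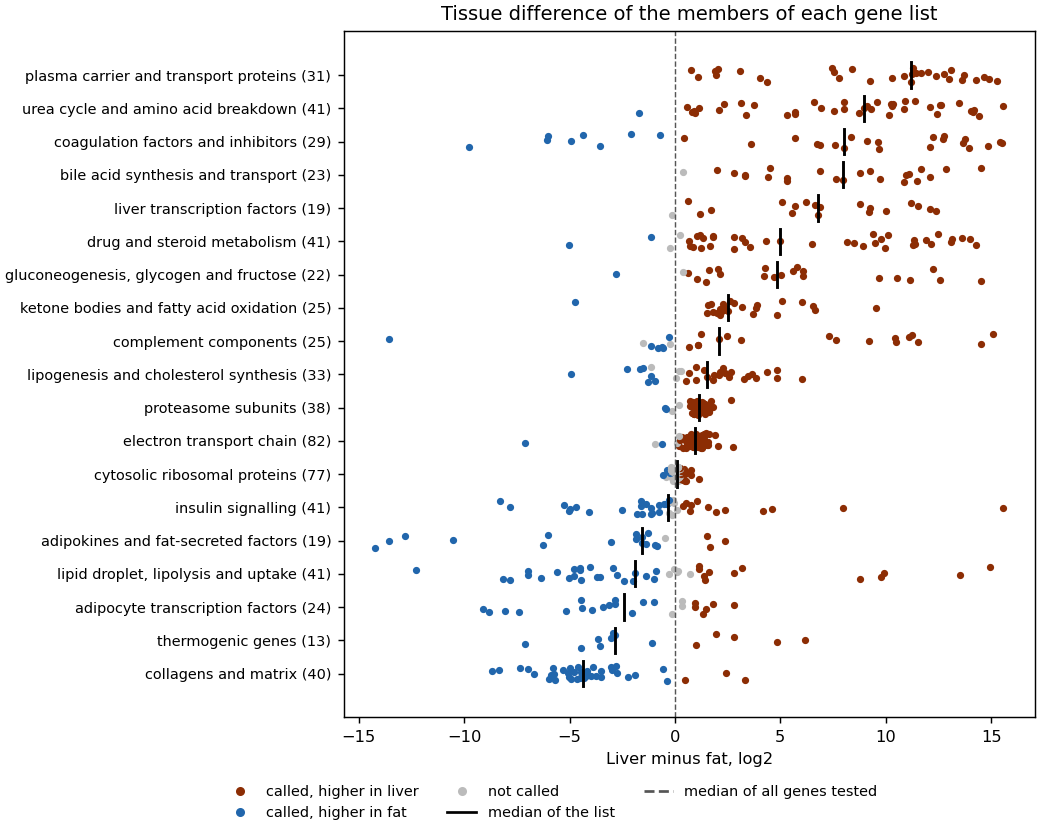
Liver minus fat difference (log2) of each tested member of 19 gene lists, with the number tested in brackets, coloured by whether the member was called higher in liver, higher in fat or in neither. Thick ticks are the median of each list, from 11.18 for plasma carrier proteins to −4.38 for collagens and matrix, and the dashed line is the median of all genes at 0.01.

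Related genes that do the same work in different tissues were compared as 28 pairs, the first gene of each listed as the liver form. In 19 pairs the first was higher in liver and the second in fat, beside 39.2% and 38.6% of all genes tested. The pairs were chosen with earlier results of these data known, so the count describes them and carries no test. It includes *Insr* and *Igf1r*, where the call of *Insr* was lost under the settings given above. The second genes of some other opposite pairs also lost their call under 1 or more settings. So did *Hmgcs1*, counted in a pair with both genes higher in liver. *Fabp1* and *Fabp4*, the fatty acid binding proteins of hepatocytes and adipocytes, differed by 13.53 ± 1.59 and −6.99 ± 0.14. *Fabp1* had 7.11, 8.20, 8.91 and 8.93 in liver and −8.29, −4.13, −7.89 and −0.66 in fat, and its difference was 15.06 without fat replicate 4. *Fabp4* had 9.05, 9.17, 9.17 and 9.06 in fat and 1.79, 1.98, 2.38 and 2.33 in liver. For glucose transport, *Slc2a2* was at least 1226-fold higher in liver, and *Slc2a4* differed by −8.30.

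The same order held for glycogen synthase (*Gys2* at 6.08 and *Gys1* at −4.03) and pyruvate kinase (*Pklr* at 5.59 and *Pkm* at −2.70). In lipid handling the lipases *Lipc*, with a bound of 7.76, and *Lpl* at −6.98, the glycerol channels *Aqp9* at 8.77 and *Aqp7* at −7.82, and the droplet proteins *Plin5* at 3.20 and *Plin1* at −12.27 were opposed. *Aqp7* was above background on 1 liver array, and its difference was −9.02 without liver replicate 3. Both genes were higher in liver in 5 pairs (among them *Igfbp1* and *Igfbp4*, *Gpt* and *Gpt2*, *Cpt1a* and *Cpt1b*) and in fat in 3 pairs (*Scd1* and *Scd2*, *Mogat2* and *Mogat1*, *Acaca* and *Acacb*), and *Aox1* of the remaining pair did not pass.

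**Figure D4:**
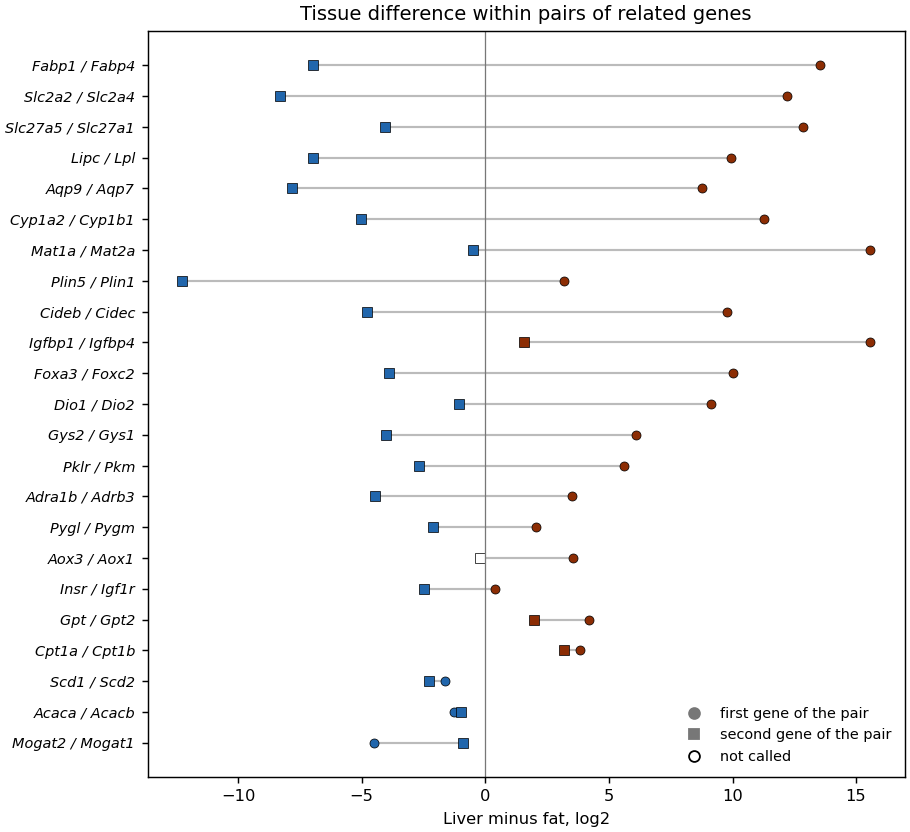
Liver minus fat difference (log2) of the genes of 23 of the 28 pairs, with the first gene of each as a circle and the second as a square, an open mark where the gene was not called. In 16 of the 23 the circle lies to the right of 0 and the square to the left, with the widest gaps in *Fabp1* and *Fabp4* and in *Slc2a2* and *Slc2a4*.

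Markers of the other cells of the tissues were examined next, beside 39.2% of all genes higher in liver and 38.6% in fat. Of 10 mesothelial markers, 8 were higher in fat, among them *Msln* with a mean of 4.12 in fat and −1.44 in liver and *Upk3b* with 2.80 and −4.76, and *Bnc1* was on no liver array above background. The keratins *Krt8* and *Krt18*, which hepatocytes also make, were higher in liver by 4.46 and 4.18. Of 9 fibroblast and adipose progenitor markers, 8 were higher in fat, with *Dpp4* the exception at 1.42. Of 8 hepatic stellate cell markers, 7 were higher in liver, and *Lrat*, the enzyme that stores retinol, was on no fat array above background. *Hoxa10* and *Hoxa11*, listed as uterine markers, had means of −0.27 and 0.08 in fat and were on no liver array above background, while *Pgr* and *Pax8* of the same list were on no array of either tissue.

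Macrophage genes lay on both sides. Of 14 markers, 4 were higher in liver and 7 in fat, beside 39.2% and 38.6% of all genes. The summed level was 140.5 to 178.2 in liver and 249.7 to 306.4 in fat. That order rested on *Lyz2*, without which the other 13 summed to 66.22 to 85.64 in liver and 48.42 to 60.74 in fat. The 4 in liver were those of Kupffer cells, namely *Clec4f* (4.55, 4.54, 4.32 and 4.72 in liver, on no fat array above background, at least 1258-fold higher), *Vsig4* at 5.51, *Marco* at 5.12 and *Timd4* at 2.33. *Trem2*, the lipid receptor of adipose macrophages, had −1.57, −1.76, −1.04 and −1.14 in liver and 2.88, 3.03, 2.76 and 3.35 in fat, a difference of −4.38. *Cd68* at −1.67, *Lyz2* at −1.42 and *Cd163* at −1.88 were also higher in fat, and *Adgre1* (−0.21) and *Csf1r* (−0.24) did not pass. Of 12 endothelial genes, 3 were higher in liver and 7 in fat, beside the same shares of all genes. The 3 were the sinusoidal *Clec4g* at 9.14, *Stab2* at 4.07 and *Fcgr2b* at 0.30, while *Lyve1*, of sinusoids and lymphatics, did not pass (−0.65, adjusted p = 0.0538), and *Emcn* at −2.65, *Pecam1* at −2.63 and *Cdh5* at −2.09 were among the 7.

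Whether the tissue difference of these mice was shared by the other mice of the study was examined in the other 3 pairs of liver and fat groups, which have no array in common with these. In *Akt1*+/- mice of the same age, with 4 arrays of each tissue, 12670 genes were called in the same direction and 59 in the opposite one. These are 87.9% of the calls here and 91.2% of the calls there. The liver and fat arrays of those mice lay on different slides too but were scanned on the same day. In mice of 8 weeks, with 3 arrays of each tissue, 11461 calls were shared in direction in wild type (79.5% here and 88.1% there) and 10850 in *Akt1*+/- mice (75.3% and 93.2%), with 106 and 41 opposed. Of the 4505 genes at least 4-fold different here, 4444 were called in the same direction in older *Akt1*+/- mice and 2 in the opposite one, and 4342 and 4327 in the 8-week groups.

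Detection in a single tissue was compared by the same rule. Of the 418 genes detected in liver only, 290 (69.4%) were so in older *Akt1*+/- mice, where there were 569 in all (51% of these), 221 (52.9%) in wild-type mice of 8 weeks, of 324 (68.2%), and 291 (69.6%) in *Akt1*+/- mice of 8 weeks, of 464 (62.7%). Of the 970 detected in fat only, 614 (63.3%), 757 (78%) and 632 (65.2%) were, of 841 (73%), 1732 (43.7%) and 1051 (60.1%) in all.

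**Figure D5:**
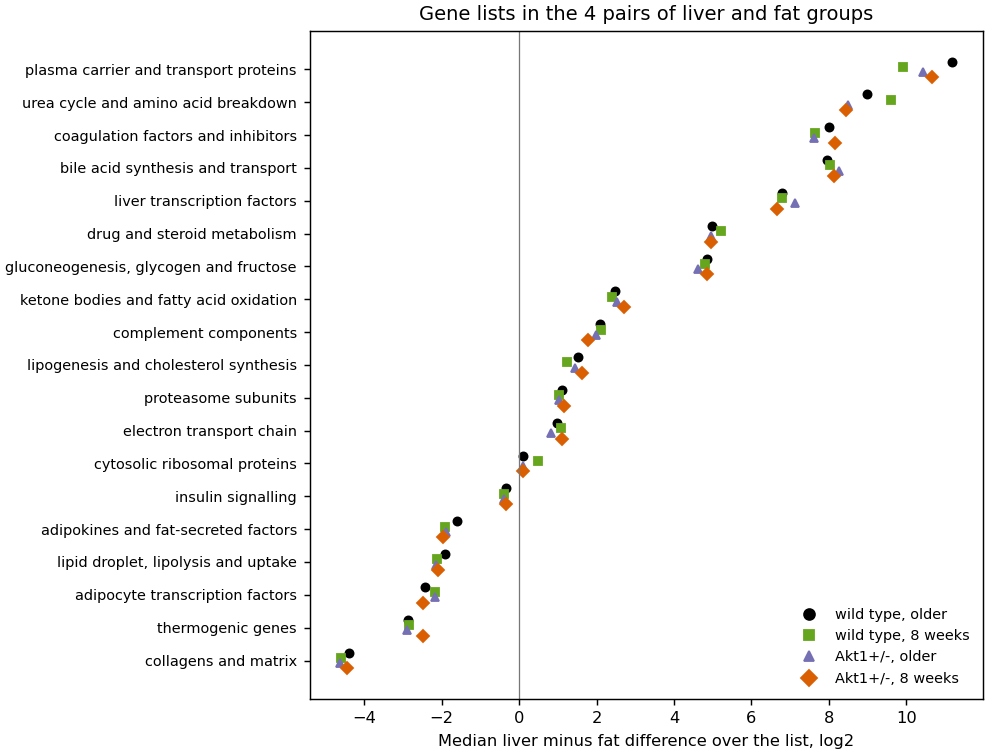
Median liver minus fat difference (log2) of each of 19 gene lists in the 4 pairs of liver and fat groups, by age and genotype. The 4 medians of a list lie close together beside the span of the lists, from −4.62 to 11.18, and cytosolic ribosomal proteins are at 0.11 in 3 pairs and at 0.50 in wild type at 8 weeks.

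The change of the tissue difference with age was tested as the interaction of tissue and age in wild type, in a fit of all 28 liver and fat arrays. It passed for 1653 of 19437 genes (8.5%), 910 with the difference shifted toward liver in the older group and 743 toward fat. For 531 of these the sign of the fitted difference was opposite at 8 weeks, whether or not the difference itself passed at either age. With each age tested on its own arrays, 106 of 18527 genes were called in opposite directions. Of the cytosolic ribosomal proteins 30 of 77 passed, all shifted toward fat in the older group, by 0.36 to 0.83 in size. Of collagens and matrix genes 11 of 40 passed, with *Col5a3* at 1.99 and *Lox* at −2.22 the outermost. *Cxcl10*, an interferon-induced chemokine, had the tissue difference −2.78 here and 2.37 at 8 weeks, an interaction of −5.15 ± 0.87 (adjusted p = 0.00124). *Myh4*, a fast muscle myosin, had −5.79 and −0.40 in that fit, an interaction of −5.39, and is one of the muscle markers above, on no wild-type liver array of either age above background.

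The other interactions at the ends were *4930535E02Rik* at 7.20, *Eml6* at 6.21, *Derl3* at −4.66, *Tgm5* at −4.65 and *AU018091* at −4.96, with the array transcripts TC1675885 at 6.23, NAP029777-1 at 5.69 and AK083849 at 5.39. *4930535E02Rik*, *Eml6*, TC1675885 and AK083849 were above background on no wild-type liver array at 8 weeks. *Tgm5* and *AU018091* were so on no older wild-type liver array. For these genes and transcripts, on no array above background in 1 of the groups, the sizes are fitted values that rest on levels below the detection limit. *Derl3* and NAP029777-1 were above background on every wild-type liver and fat array of both ages. NAP029777-1 had a mean of 6.95 in liver of the older wild type and −0.15 at 8 weeks, and was 6.77 and −0.02 in *Akt1*+/- liver. Among genes with the highest bounds, *Aadac* at 3.07, *Cyp3a44* at 2.60 and *Pzp* at 2.19 were shifted toward liver in the older group, from fitted values, since their fat levels here were not above background. The age groups lay on different slides scanned on different days, so age and slide cannot be told apart.

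The interaction of tissue and genotype in the older mice passed for 405 of 19437 genes (2.08%), 18 with the difference shifted toward liver in wild type and 387 toward fat. The largest shifts toward liver were in the desmosomal *Dsc2* at 1.5, *Cldn7* at 1.16, *Amz1* at 1.10, the sinusoidal scavenger receptor *Stab2* at 0.94 and *Prodh2* of hydroxyproline breakdown at 0.79. At the other end were *Myh2*, a muscle myosin, at −4.30, *Papolb* at −3.62 and the array transcripts NAP057956-1 at −3.77, D17387 at −3.48 and ENSMUST00000081163 at −3.28. *Papolb*, D17387 and ENSMUST00000081163 were above background on no array of older wild-type liver or older *Akt1*+/- fat. NAP057956-1 was on none of those and on 1 of the older wild-type fat arrays. Their shifts are fitted values from levels near or below the detection limit, not measured folds. *Dsc2* was likewise above background on no older wild-type fat array. Members of the lists past this threshold were *Retn* at −2.18 (adjusted p = 0.000593), the receptor *Nr1i3* at −1.43, *Rplp0* at −0.48 and *Prodh2*. The fit of 28 arrays took another probe of *Retn*, with a difference of −14.40 here and −12.22 in *Akt1*+/- mice, above background on 1 of the 8 liver arrays. Without liver replicate 2 the count was 253. The genotype groups also lay on different slides. The older wild-type fat was scanned on another day than the older wild-type liver and the liver and fat of older *Akt1*+/- mice. Genotype, slide and scan day therefore cannot be told apart in this interaction.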

How the data were processed

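RNA of each sample was hybridised to a one-colour Agilent 44K whole mouse genome array with probe positions on mm8. The authors scanned the arrays with Feature Extraction, 9.5.3.1 in the file headers and 9.1 in the submitters' processing notes, and deposited each spot's processed intensity, which is corrected for background, with flags for spots well above background. They also deposited a table of log2 values of the series, which served as an alternative.

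The 42 arrays held 41174 non-control probes on 43379 spots. Intensities were scaled to each array's 75th percentile and then taken to log2. Spots of a probe were averaged, and 30 probes with an outlier flag on the 8 arrays were left out. Probes well above background on at least 3 of 4 arrays of either group were kept, 27769 in all. The brightest probe stood for a gene. Numbers of arrays above background refer to this probe, but a bound is given only where no probe of the gene was above background in the dim tissue. Of the 6448 genes with several probes, 454 had probes called in opposite directions. RefSeq accessions named 24375 probes, current symbols 6301 and older symbols 2426, and 8072 kept the array's name. Liver and fat were compared with limma 3.58.1 (R 4.3.3, lmFit and eBayes) on these 8 arrays alone, with Benjamini-Hochberg adjustment and an adjusted p of 0.05 as threshold. Interactions were fitted on the 28 liver and fat arrays of both ages and genotypes, where the brightest probe of a gene can be another one. Such a bound is the bright mean against the detection limits of the dim arrays, or the dim probe's own level where that is higher. Precision is limited by the number of arrays. The scripts were tested on simulated data.

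The genes, lists and pairs were chosen with earlier results of these data known. Genes were named as the 10 with the largest difference measured in both tissues and the 10 with the highest bounds in each direction, the 3 largest and 3 smallest of each list, the pairs, the 5 largest interactions in each direction, and members of lists past an interaction threshold. Some genes are counted in lists and pairs but their values are not reported here. Others named, among them markers, were chosen after their values were seen. Alternatives were normexp (offset 50) with quantile normalization, 2 other scalings, the authors' log2 values, other filters on dim probes, the mean of probes, 1 fit over all 42 arrays, a replicate block and leaving out each array. Bounds in place of fitted folds and 3 marker sums without 1 member were added after seeing the data.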

Additional observations from a re-analysis of the deposited data

Results flagged for a closer look

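In 11 of 144 sets of 4 arrays, over 96 genes, a single array lay apart from the other 3, its gap to the nearest divided by the range being above Dixon's critical value. Chance gives about 1 such set in 20. In 5 of these, all genes of liver, fat replicate 4 was the highest of the fat arrays. The ratio was 0.832 for *Cyp4a14* (−1.72 against −5.21 to −4.62), 0.838 for *Cyp2d26* (−3.07 against −4.57 to −4.33), 0.937 for *Proc* (−4.62 against −5.37 to −5.32), 0.829 for *Cyp4a31* (−2.71 against −3.77 to −3.59) and 0.868 for *Itih3* (−3.17 against −4.62 to −4.43). Liver replicate 1 was the lowest liver array for *Slco1b2* (0.899, with 7.04 against 7.28 to 7.3) and *Slc2a2* (0.886, with 3.96 against 4.62 to 4.71). Liver replicate 3 lay apart for NAP001160-001 (0.901, with 6.93 against 6.58 to 6.61), *Aqp9* (0.894, with 3.90 against 3.71 to 3.73) and *Gpt* (0.851, with 6.29 against 6.44 to 6.47), and fat replicate 1 for *Hk2* (0.897, with 2.14 against 3.38 to 3.52).

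The tissue difference itself differed between wild-type mice of 35 and 8 weeks for 1653 genes and between wild-type and *Akt1*+/- mice of 35 weeks for 405, by the interaction term in limma. Among the genes named by their tissue difference, the interaction with age was 3.07 for *Aadac*, 2.60 for *Cyp3a44*, 2.19 for *Pzp*, 1.64 for *Acaca*, 0.90 for *Pygl*, −0.71 for *Fabp4* and −1.89 for *Chrdl1*.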

How the results depend on the processing

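Without a filter on dim probes 10907 genes were higher in liver. With normexp and quantile normalization 1132 genes were at least 4-fold higher in liver and 1287 in fat, and 251 list members were higher in fat, against 156. With probes above background on all 8 arrays the 4-fold counts were 1179 and 1258. Detection on at least 3 of 4 arrays against at most 1 of 4 gave 772 genes for liver only and 1653 for fat only. The difference of *Selenop* (−0.002), *Hibadh* (−0.224), *Pcx* (−0.419), *Rpl36a* (−0.273), *Rps2* (−0.168) and *Hmgcs1* (−0.178) changed sign with normexp and quantile normalization. Of these, only *Pcx* and *Rps2* passed the threshold as higher in fat under that setting. Of 212 named genes, 182 kept direction and call under each of the 17 settings that could be run for them, but 74 had no value with probes above background on all 8 arrays. The median of all genes ranged from −0.138 to 0.299, and the share of calls higher in liver was 50.4%, against 44.9% with normexp, 55.5% with median scaling and 59.7% without a filter. Leaving out 1 array gave 6977 to 7248 genes higher in liver, 6884 to 7156 in fat, 1934 to 1981 and 2523 to 2581 at 4-fold, 411 to 429 and 151 to 157 list members, 420 to 521 and 976 to 1137 genes detected in liver or fat only, 1147 to 1566 age interactions and 253 to 441 genotype interactions (253 without liver replicate 2, 290 without fat replicate 4). The cause of these changes was not tested. Same-numbered liver and fat arrays had correlations of their deviations from 0.0642 to 0.211, not all above 0.1, and the labels name no shared mouse, so they were not taken as pairs. Each array correlated best with its own number, a hint from the data alone. The replicate number was also the position on the slide in both groups, so a shared mouse and a shared position cannot be told apart. With the replicate block 7230 genes were higher in liver and 7157 in fat, with 1992 age and 463 genotype interactions. Genes near or below the detection limit are known only as bounds.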
